A study of Mus musculus with 18 samples.

Results

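A set of 10 genes that handle superoxide, iron, zinc and glutathione was followed across all 9 groups of the study. They are the superoxide dismutases Sod1, Sod2 and Sod3, the ferritin subunits Fth1 and Ftl1, the metallothioneins Mt1 and Mt2, haem oxygenase Hmox1, and both subunits of glutamate-cysteine ligase, Gclc and Gclm. They were read from the deposited table by symbol, 10 of its 55536 genes, and all 10 passed the filter on low counts. The set was chosen with earlier results of these data known, so its counts beside all genes are descriptions. The RNA came from 3 immortalised fibroblast lines of mouse embryos: 1 of wild-type genotype (WT), 1 without p65 (p65 KO; p65 is the NF-κB protein that Rela encodes) and 1 without IKK beta (IKK2 KO; Ikbkb encodes this kinase, which releases NF-κB by marking IκB for breakdown). Cells of every line were sampled untreated and after 45 or 90 min with the inflammatory cytokine TNF alpha (TNF) at 10 ng/ml, with 2 libraries per group, called a and b here as names only. All 3 lines were immortalised and grown in the same serum-containing medium, and no agent other than TNF was given. Each genotype is 1 line, so a difference between lines cannot be told apart from any other difference between those lines. Nothing in the labels says that the 2 libraries of a group came from separate cultures, so the spread behind each p-value may be technical only.

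Superoxide dismutases turn superoxide into hydrogen peroxide, in the cytosol (Sod1), in mitochondria (Sod2) and outside the cell (Sod3). Ferritin cages made of heavy and light subunits store iron that would otherwise feed radical chemistry, metallothioneins bind zinc and copper through cysteines, and haem oxygenase breaks haem into iron, carbon monoxide and biliverdin. Glutamate-cysteine ligase makes the first step of glutathione synthesis, and several of these genes are textbook targets of NF-κB (Sod2, Fth1), of the zinc sensor MTF1 (Mt1, Mt2) or of the stress factor NRF2 (Hmox1, Gclc, Gclm).

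Libraries held 16.7 to 23.5 M counts. Here M is the mega prefix, and levels are given as CPM, the counts per M counts of the TMM-scaled library, and differences as log2 changes with standard errors (SE) from edgeR's quasi-likelihood test. Adjusted p-values are Benjamini-Hochberg values over the 16322 genes tested, and a gene is said to rise or fall only where its adjusted p is under 0.05. Rela stood at 63.8 CPM in untreated WT and 5.68 in untreated p65 KO. Ikbkb stood at 59.9 CPM in untreated WT, 42.7 in untreated p65 KO and 43.4 in untreated IKK2 KO. This leaves the label of the IKK2 KO unchecked by its own transcript. All 10 fibroblast markers on a list were tested, with Lum at 0 to 0.915 CPM; their summed level was 11360 to 11740 CPM in WT, 11220 to 11650 in IKK2 KO and 4877 to 5025 in p65 KO. Summed myeloid markers reached at most 12.1 CPM, with Adgre1 and Tyrobp at 0, and summed endothelial, epithelial, muscle and erythroid markers reached at most 3.23 CPM.

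Set against exon length, ferritin stood above the rest. The length used was that of all annotated exons of a gene merged, which can exceed that of the mRNA expressed. The order therefore depends on annotation: without length, untreated WT held 97.8 CPM of Sod1 and 49.3 of Hmox1. In untreated WT, Ftl1 reached 547 CPM per kb of exon and Fth1 152, followed by Hmox1 at 28.1, Sod1 at 24.6, Mt1 at 21.8, Gclc at 15.6, Gclm at 11.03, Sod3 at 8.65, Mt2 at 6.59 and Sod2 at 4.57. Across the 9 groups the ratio of the highest to the lowest group mean was 26.2 for Sod3, 5.58 for Mt2, 3.50 for Hmox1, 2.31 for Mt1, 2.13 for Sod1 and 2.02 for Gclm. It was 1.89 for Sod2, 1.61 for Fth1, 1.34 for Gclc and 1.21 for Ftl1, the most even of the 10.

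**Figure D1:**
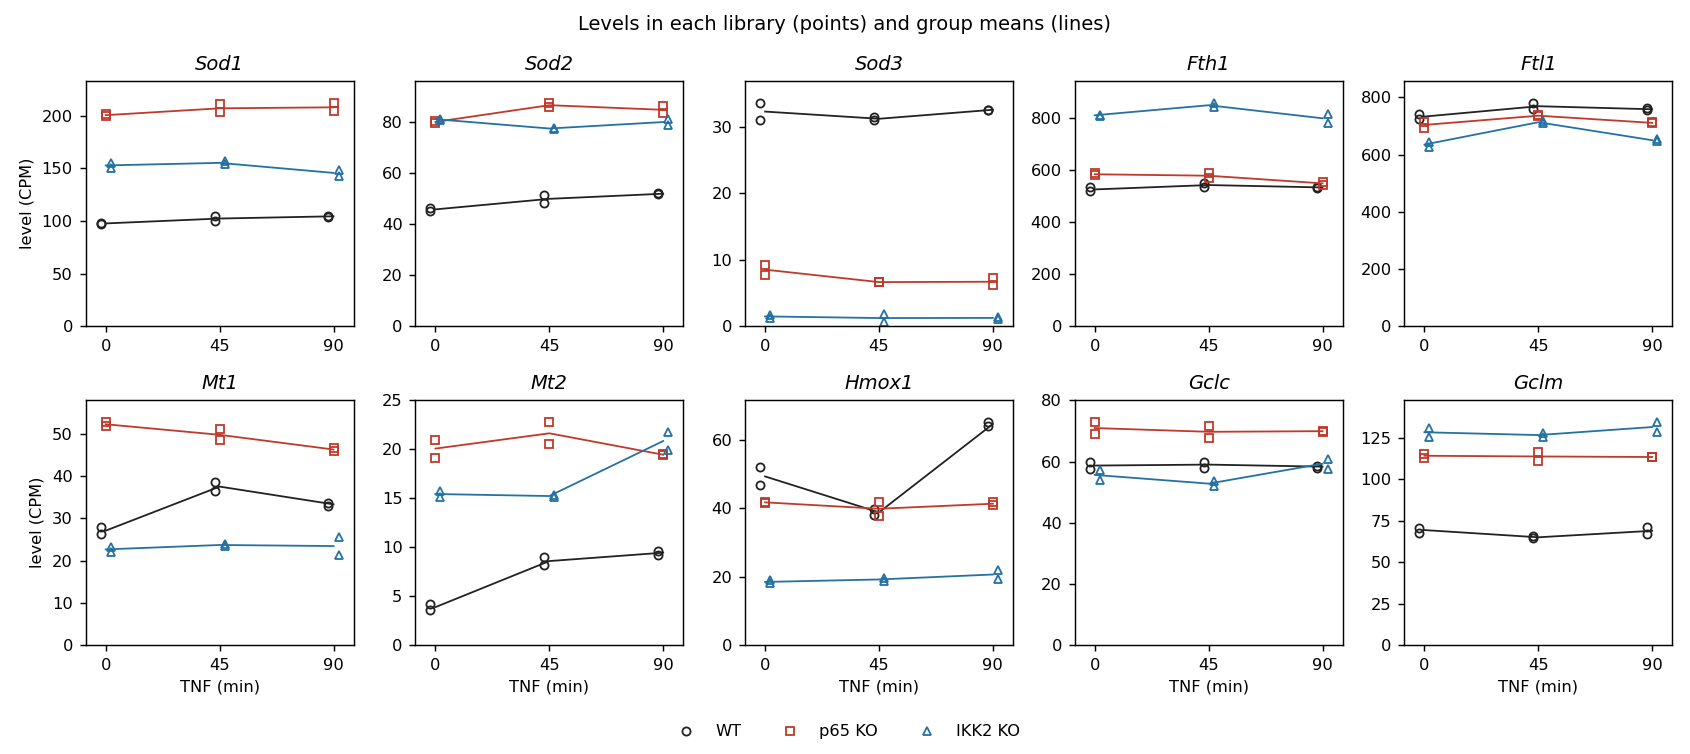
Level of each gene (CPM, linear axis from 0) against minutes of TNF, with 1 point per library and lines through the group means of WT, p65 KO and IKK2 KO. The lines separate by cell line for most genes, Sod3 is near the axis in IKK2 KO (0.709 to 1.78 CPM), and in WT the lines of Mt1, Mt2 and Hmox1 bend with TNF.

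Which of these genes differ between the lines before any TNF was asked first. In untreated p65 KO all 10 differed from WT: Mt2, Sod1, Mt1, Sod2, Gclm, Gclc and Fth1 were higher and Sod3, Hmox1 and Ftl1 lower. This count of 10 of 10 stands beside 80.8% of all tested genes that passed the same threshold (39.8% higher, 41.1% lower), so a call between these lines is ordinary. Untreated IKK2 KO differed from WT in 9 of 10 (5 higher, 4 lower) beside 74.3% of all genes (35.9% higher, 38.4% lower), and Gclc was the exception. Untreated IKK2 KO differed from untreated p65 KO in 9 of 10 (2 higher, 7 lower) beside 72.4% of all genes (35.5% higher, 36.9% lower), with Sod2 the exception. The median log2 difference of the 10 genes was 0.50 for p65 KO against WT and 0.27 for IKK2 KO against WT, with medians of -0.02 and -0.03 over all genes. These comparisons share the untreated WT libraries. The fibroblast marker sum given above also differs between p65 KO and WT. Fn1 (820 to 5213 CPM over all libraries) and Vim (2171 to 4507) reach the highest levels in this sum, so it can follow a few genes. The part of the sum in these differences was not tested. In such bulk RNA, fewer cells of a type and less RNA per cell cannot be told apart.

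**Figure D2:**
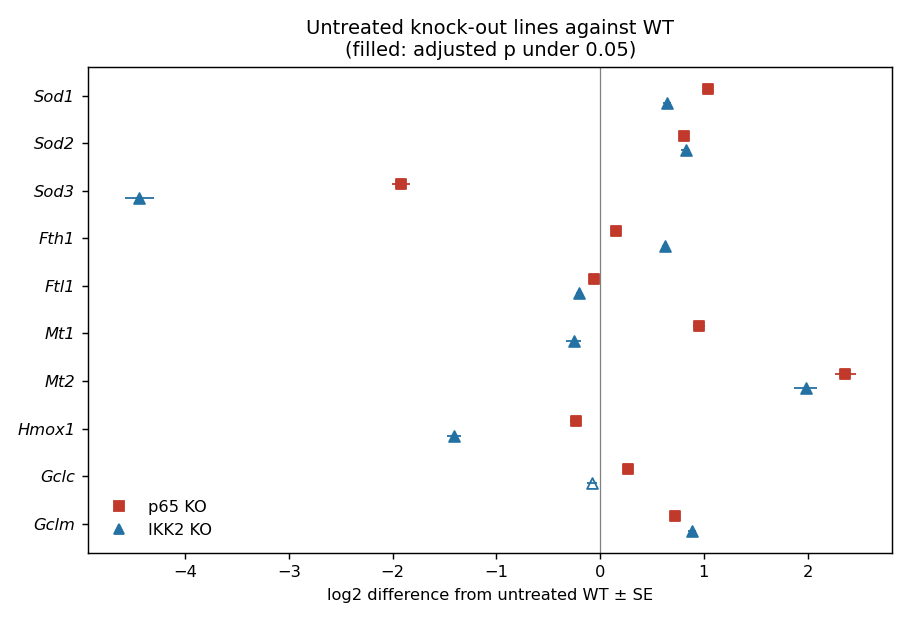
Log2 difference of untreated p65 KO (squares) and untreated IKK2 KO (triangles) from untreated WT for each gene, with bars of ± SE; filled symbols have an adjusted p under 0.05. Mt2 lies far to the right in both lines (2.36 and 1.98) and Sod3 far to the left (-1.92 and -4.44), while Mt1 lies on opposite sides of 0 (0.95 and -0.26).

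The second question was which of them respond to TNF in each line. In WT, 3 of 10 changed at 45 min (Mt2 and Mt1 rose, Hmox1 fell) beside 12.2% of all genes, and 4 of 10 changed at 90 min (Mt2, Hmox1, Mt1 and Sod2, each upward) beside 9.32%. In p65 KO, edgeR called 0 of 10 at 45 min beside 1.66% of all genes; 3 of the 10 had an unadjusted p under 0.05, and DESeq2 also called 0. At 90 min in p65 KO 2 of 10 changed (Mt1 and Fth1, both downward) beside 6.48%. In IKK2 KO 1 of 10 changed at 45 min (Ftl1, upward) beside 8.76%, and 1 of 10 at 90 min (Mt2, upward) beside 4.48%. Between 45 and 90 min, WT changed in 2 of 10 (Hmox1 up, Mt1 down) beside 14.3% of genes and IKK2 KO in 5 of 10 (Mt2 and Gclc up, Ftl1, Sod1 and Fth1 down) beside 15.7%. In p65 KO edgeR called 0 of 10 between these times beside 2.73%; 4 had an unadjusted p under 0.05 and DESeq2 called 0. The shares of all genes given here are for adjusted p under 0.05, so they do not compare with the counts at an unadjusted p. A share of all genes at an unadjusted p under 0.05 is not given. The comparisons within a line share libraries.

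**Figure D3:**
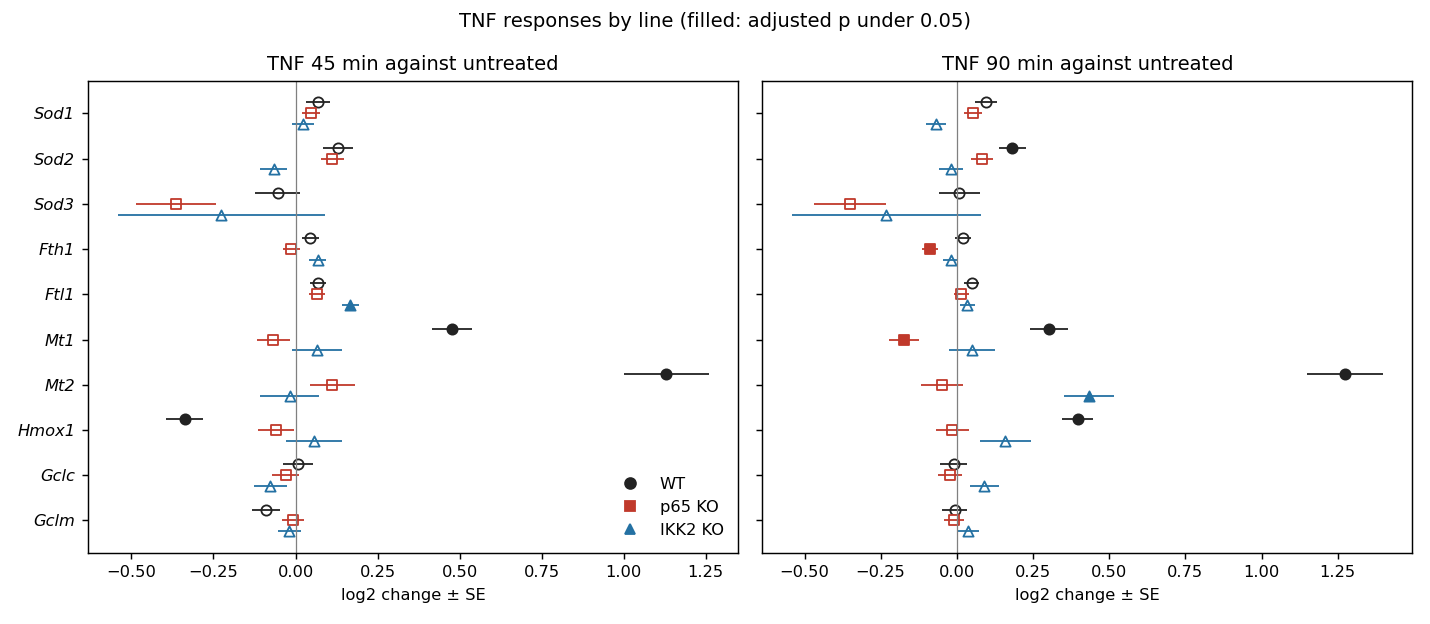
Log2 change of each gene after TNF for 45 min (left) and 90 min (right) against untreated cells of the same line, with bars of ± SE; filled symbols have an adjusted p under 0.05. In WT, Mt2 is the farthest from 0 at both times (1.13 and 1.27), and Hmox1 is below 0 at 45 min (-0.34) and above 0 at 90 min (0.40).

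Sod1, the copper and zinc enzyme of the cytosol (ENSMUSG00000022982, chr16:90220754-90226329, plus strand, GRCm38), separated by line. Its level was 98.3 and 97.3 CPM in the untreated WT libraries, 199.98 and 201 in p65 KO, and 155 and 151 in IKK2 KO. Over all 6 libraries of a line, the ranges were 97.3 to 105 CPM in WT, 143 to 157 in IKK2 KO and 199.98 to 212 in p65 KO, so no library of one line entered the range of another. Untreated p65 KO exceeded WT by 1.04 ± 0.03 (SE) on the log2 scale, 2.05-fold (edgeR adjusted p = 1.3e-29), and IKK2 KO exceeded WT by 0.64 ± 0.03 (adjusted p = 8.7e-21). IKK2 KO stood below p65 KO by -0.39 ± 0.03 (adjusted p = 4.9e-15). Sod1 varied little with TNF. In WT the change was 0.10 ± 0.04 at 90 min, which missed the threshold (adjusted p = 0.086). In IKK2 KO it fell by 0.09 ± 0.03 between 45 and 90 min (adjusted p = 0.049), from 157 and 154 CPM to 149 and 143; the call was lost with DESeq2 (adjusted p = 0.17), without the low-count filter (0.059), with only the groups compared in the fit (0.085), and without TNF 45 min a (0.25), TNF 45 min b (0.082) or TNF 90 min b (0.43).

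Sod2, the manganese enzyme of mitochondria (ENSMUSG00000006818, chr17:13006846-13040063, plus strand), was higher in both knock-outs than in WT and rose slightly with TNF in WT. Because Sod2 is a textbook NF-κB target, the 250 bases before its RefSeq transcription start (GRCm38.p6, chr17:13007589-13007838, plus strand) are shown, with capitals for the single match to the consensus κB site.
Sod2: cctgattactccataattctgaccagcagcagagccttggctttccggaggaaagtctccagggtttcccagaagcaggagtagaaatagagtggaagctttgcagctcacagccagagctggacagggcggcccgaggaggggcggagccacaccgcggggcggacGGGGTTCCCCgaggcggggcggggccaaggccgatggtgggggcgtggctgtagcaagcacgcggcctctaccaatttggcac
The match begins 83 bases before the start; these bases fit the consensus on either strand and were counted once. Of 32851 RefSeq promoters of the same length, 7.3% hold at least 1 κB match, so such a match is no rarity. Other members with an entry (7 of the 10 had one) were searched in the same way, and Ftl1 was the other with a match.

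In WT, Sod2 stood at 45.3 and 46.2 CPM untreated, 48.2 and 51.6 after 45 min, and 52.2 and 51.6 after 90 min. All 4 treated libraries lay above both untreated ones. The rise at 90 min was 0.18 ± 0.05 on the log2 scale, 13.5% (edgeR adjusted p = 0.0047), and that at 45 min, 0.13 ± 0.05, missed the threshold (adjusted p = 0.062). The call at 90 min was lost with DESeq2 (adjusted p = 0.11), without WT untreated a (0.074) and without WT TNF 90 min a (0.056), and the change at 45 min passed without WT TNF 45 min a (0.034). Untreated p65 KO held 80.5 and 79.5 CPM and untreated IKK2 KO 81.2 and 80.9, above WT by 0.81 ± 0.04 (adjusted p = 1.1e-21) and 0.83 ± 0.04 (adjusted p = 4.1e-21). These knock-outs differed from each other by 0.02 on the log2 scale, which passed the threshold in the fit of protein-coding genes alone (0.09, adjusted p = 0.037). With TNF, p65 KO reached 85.8 and 87.3 CPM at 45 min and 83.4 and 86.1 at 90 min. IKK2 KO held 77.7 and 77.2 CPM, then 78.6 and 81.3, and no change passed in either knock-out. In p65 KO the changes were 0.11 ± 0.04 at 45 min (edgeR adjusted p = 0.12) and 0.08 ± 0.04 at 90 min (0.18), without overlap with untreated libraries. The p65 KO response differed from that of WT by -0.02 ± 0.06 at 45 min (edgeR adjusted p = 0.95) and -0.10 ± 0.06 at 90 min (0.42). The response of IKK2 KO differed from that of WT by -0.20 ± 0.06 at each time without passing (adjusted p = 0.057 at 45 min and 0.064 at 90 min); the 45 min difference passed without WT TNF 45 min a (0.030).

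Sod3, the secreted enzyme (ENSMUSG00000072941, chr5:52363791-52371418, plus strand), had the widest range of the 10 genes and no TNF change past the threshold in WT. Untreated WT held 33.6 and 31.1 CPM, p65 KO 9.31 and 7.76, and IKK2 KO 1.67 and 1.31. The WT range over 6 libraries was 31.1 to 33.6 CPM, and the highest library of either knock-out was at 9.31. Against WT the difference was -1.92 ± 0.09 on the log2 scale in p65 KO, 0.264 of the WT level (edgeR adjusted p = 1.3e-23), and -4.44 ± 0.14 in IKK2 KO, 0.0459 of the WT level (adjusted p = 5.6e-29). IKK2 KO stood below p65 KO by -2.52 ± 0.19 (adjusted p = 1.2e-15). The IKK2 KO libraries held only 12 to 33 Sod3 counts each, so its TNF responses there have SE values above those of any other member. In p65 KO both TNF times were lower than untreated, at 6.69 and 6.62 CPM and at 6.22 and 7.20 CPM, a change of -0.36 ± 0.12 at 45 min (adjusted p = 0.14) and -0.35 ± 0.12 at 90 min (adjusted p = 0.067). The 90 min change passed without the filter (adjusted p = 0.043), with protein-coding genes alone (0.043), with only the groups compared (0.032) and without p65 KO untreated b (0.046).

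Ferritin mRNAs carry an iron-responsive element, a hairpin in the 5′ untranslated region through which iron regulatory proteins hold back translation when iron is scarce. It is shown because it marks a layer of ferritin control that mRNA counts do not measure. The bases below were read from the GENCODE M21 transcripts, with the hexaloop in capitals, at bases 86 to 115 of the Fth1 transcript and 77 to 106 of the Ftl1 transcript.
Fth1: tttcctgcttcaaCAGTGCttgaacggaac
Ftl1: tgtcttgcttcaaCAGTGTttgaacggaac
The pattern searched, a C, then any 5 bases, then CAGTG and any base, was matched once in each and in none of the other 8 members. Members were searched in the 5′ untranslated region alone, up to 250 bases. Of 21182 protein-coding transcripts, 9.56% match the pattern within the first 250 bases, coding bases included, so the windows are unlike. The match is one of letters and says nothing on folding.

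Fth1, the heavy subunit with ferroxidase activity (ENSMUSG00000024661, chr19:9980598-9985098, plus strand), was highest in IKK2 KO. Untreated libraries held 534 and 519 CPM in WT, 580.4 and 589 in p65 KO, and 814 and 810.1 in IKK2 KO. IKK2 KO exceeded WT by 0.62 ± 0.03 on the log2 scale, 1.54-fold (edgeR adjusted p = 1.0e-24), and exceeded p65 KO by 0.47 ± 0.03 (adjusted p = 1.5e-20). The excess of p65 KO over WT was smaller, 0.15 ± 0.03 (adjusted p = 1.3e-06), and came to 0.06 (adjusted p = 0.023) in the fit of protein-coding genes alone, which moved the median of all genes in this comparison by -0.09. No TNF change of Fth1 in WT passed. In p65 KO it fell by 0.09 ± 0.03 at 90 min, to 556 and 544 CPM (adjusted p = 0.025), a call lost when any 1 of the 4 libraries was left out: untreated a (adjusted p = 0.098), untreated b (0.25), TNF 90 min a (0.060) or TNF 90 min b (0.28). In IKK2 KO Fth1 stood at 843 and 858 CPM at 45 min and 818 and 782 at 90 min, a fall of 0.09 ± 0.03 between these times (adjusted p = 0.012), lost without TNF 45 min b (0.099) or TNF 90 min b (0.34).

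Ftl1, the light subunit that helps the iron core form (ENSMUSG00000050708, chr7:45457944-45459884, minus strand), was ordered the opposite way from Fth1. Untreated libraries held 742.5 and 723 CPM in WT, 694 and 713 in p65 KO, and 644 and 626 in IKK2 KO. Untreated IKK2 KO stood below WT by -0.21 ± 0.02 on the log2 scale (edgeR adjusted p = 6.0e-10) and below p65 KO by -0.15 ± 0.02 (adjusted p = 9.9e-07). The gap of p65 KO to WT was -0.06 ± 0.02 (adjusted p = 0.024) and was lost without the filter (0.42), without WT untreated a (0.28) and without p65 KO untreated a (0.38). With protein-coding genes alone it was -0.15 (adjusted p = 2.1e-08), and the gap of IKK2 KO to p65 KO was -0.08 (adjusted p = 0.003). In IKK2 KO, TNF for 45 min raised Ftl1 to 709 and 717 CPM, by 0.17 ± 0.02 or 12.3% (adjusted p = 2.5e-06), and at 90 min it was back at 654 and 646 CPM, a fall of 0.13 ± 0.02 from 45 min (adjusted p = 6.7e-05). The 45 min libraries of IKK2 KO did not overlap those of either other time. The change at 45 min was 0.07 ± 0.02 in WT (adjusted p = 0.054, and 0.046 without WT TNF 45 min a) and 0.06 ± 0.02 in p65 KO (adjusted p = 0.20, and 0.030 with only the groups compared). The IKK2 KO response exceeded the WT response by 0.10 ± 0.03, which did not pass (adjusted p = 0.11, and 0.049 with RLE scaling). Every Ftl1 value was fractional, and its near copies Ftl1-ps1 and Ftl2-ps held 8.94 to 9.87% and 4.27 to 5.06% of its counts, so the split of reads between them is uncertain. In IKK2 KO at 45 min these copies changed by 0.11 ± 0.05 (Ftl1-ps1, adjusted p = 0.15) and 0.12 ± 0.06 (Ftl2-ps, adjusted p = 0.29).

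Mt1 (ENSMUSG00000031765, chr8:94179082-94180327, plus strand) and Mt2 (ENSMUSG00000031762, chr8:94172664-94173568, plus strand) are neighbours, with 5513 bases between the end of Mt2 and the start of Mt1. Both rose with TNF in WT, and their untreated levels parted between the knock-outs. Since metal response elements, the sites of MTF1, are the known control of both, the 250 bases before each RefSeq start (GRCm38.p6, plus strand, chr8:94178839-94179088 for Mt1 and chr8:94172368-94172617 for Mt2) are shown, with capitals for every match to the core TGCACNC or TGCGCNC on either strand.
Mt1: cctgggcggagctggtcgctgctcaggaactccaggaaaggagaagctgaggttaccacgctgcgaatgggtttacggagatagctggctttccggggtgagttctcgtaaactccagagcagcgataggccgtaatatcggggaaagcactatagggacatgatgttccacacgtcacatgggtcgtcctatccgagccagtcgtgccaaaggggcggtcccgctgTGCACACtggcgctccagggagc
Mt2: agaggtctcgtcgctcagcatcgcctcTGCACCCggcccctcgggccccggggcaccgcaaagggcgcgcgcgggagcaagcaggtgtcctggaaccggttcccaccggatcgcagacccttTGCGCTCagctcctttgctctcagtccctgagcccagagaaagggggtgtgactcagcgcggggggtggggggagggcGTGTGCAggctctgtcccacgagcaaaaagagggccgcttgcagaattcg
In these windows Mt1 has 1 match and Mt2 has 3, of which GTGTGCA lies on the minus strand. Bases after each RefSeq start were not searched, and the Mt1 transcript of GENCODE M21 has 229 bases before its start codon. The counts therefore do not give the number of such elements at either gene. At least 1 match occurs in 21.4% of the 32851 promoters and at least 2 in 5.2%. Neither window matches the κB site, and the Mt2 window also holds 1 match to the antioxidant response element core, TGAC then any 3 bases then GC (found in 10.2% of promoters), which overlaps none of the capitals. Of the other members with a promoter entry, Gclm alone matched the metal response element core, with 2 matches.

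In WT, Mt2 stood at 4.15 and 3.60 CPM untreated, 9.03 and 8.12 after 45 min, and 9.21 and 9.65 after 90 min. All treated WT libraries were above both untreated ones. The rise was 1.13 ± 0.13 on the log2 scale, 2.19-fold, at 45 min (edgeR adjusted p = 3.7e-09) and 1.27 ± 0.13, 2.42-fold, at 90 min (adjusted p = 8.2e-11). Mt2 is a low gene in WT, with 71 to 195 counts per library. Mt1 in WT stood at 26.2 and 28.0 CPM untreated, 36.5 and 38.6 after 45 min, and 33.025 and 33.6 after 90 min. It rose by 0.48 ± 0.06, 39.1%, at 45 min (adjusted p = 6.2e-08) and by 0.30 ± 0.06, 23.3%, at 90 min (adjusted p = 0.00048). The later WT level of Mt1 was below the earlier one by -0.17 ± 0.06 (adjusted p = 0.045), a call lost with DESeq2 (0.31), without the filter (0.051), and without TNF 45 min a (0.053), TNF 45 min b (0.34), TNF 90 min a (0.20) or TNF 90 min b (0.13).

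In p65 KO both metallothioneins started high and neither rose. Untreated Mt2 stood at 21.0 and 19.1 CPM, above WT by 2.36 ± 0.10 or 5.14-fold (edgeR adjusted p = 3.7e-24). After TNF it was at 22.8 and 20.5 CPM at 45 min and 19.4 and 19.5 at 90 min. Untreated Mt1 stood at 51.8 and 52.8 CPM, above WT by 0.95 ± 0.06 or 1.93-fold (adjusted p = 1.4e-19), and was at 51.1 and 48.5 CPM at 45 min. At 90 min it was at 45.9 and 46.8 CPM, a fall of 0.17 ± 0.05 (adjusted p = 0.021) that was lost with DESeq2 (0.35) and without untreated a (0.099), untreated b (0.17), TNF 90 min a (0.17) or TNF 90 min b (0.095). The lowest p65 KO library of either metallothionein was still above the highest WT library.

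In IKK2 KO the pair split. Untreated Mt2, at 15.7 and 15.1 CPM, was above WT by 1.98 ± 0.12 (edgeR adjusted p = 1.9e-19), while untreated Mt1, at 23.3 and 22.1 CPM, was below WT by -0.26 ± 0.07 (adjusted p = 0.0013). Mt2 held 15.3 and 15.1 CPM at 45 min and 21.7 and 19.9 CPM at 90 min. The later rise was 0.43 ± 0.08, 35.1%, from untreated (adjusted p = 0.0003) and 0.45 ± 0.08 from 45 min (adjusted p = 3.8e-05). Mt1 held 23.4 and 24.1 CPM at 45 min and 25.5 and 21.4 at 90 min, and neither change passed. Against p65 KO, untreated IKK2 KO was lower in both, by -1.21 ± 0.06 for Mt1 (adjusted p = 2.0e-21) and -0.38 ± 0.08 for Mt2 (adjusted p = 4.2e-05).

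Hmox1 (ENSMUSG00000005413, chr8:75093621-75100589, plus strand) was the one member that fell and then rose with TNF in WT. It stood at 46.6 and 51.9 CPM untreated, 37.9 and 39.7 at 45 min, and 64.0 and 65.1 at 90 min. The 3 WT groups did not overlap. The fall at 45 min was 0.34 ± 0.06 on the log2 scale (edgeR adjusted p = 1.0e-05), the level at 90 min was above untreated by 0.40 ± 0.05 (adjusted p = 5.0e-08), and the rise between the 2 times was 0.73 ± 0.05, 1.66-fold (adjusted p = 1.3e-14). In p65 KO Hmox1 kept within 37.7 to 41.9 CPM over all 6 libraries, and in IKK2 KO within 18.015 to 21.8. No change with TNF passed in either knock-out. Untreated p65 KO stood below WT by -0.23 ± 0.05 (adjusted p = 0.0001). Untreated IKK2 KO, at 18.015 and 18.9 CPM, stood at 0.376 of the WT level, a difference of -1.41 ± 0.07 (adjusted p = 2.0e-22), and below p65 KO by -1.18 ± 0.07 (adjusted p = 2.8e-19).

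Gclc, the catalytic subunit of glutamate-cysteine ligase (ENSMUSG00000032350, chr9:77754535-77794485, plus strand), varied little. Untreated libraries held 59.9 and 57.5 CPM in WT, 72.9 and 69.0 in p65 KO, and 54.0 and 57.2 in IKK2 KO. p65 KO exceeded WT by 0.27 ± 0.04 on the log2 scale (edgeR adjusted p = 2.4e-07; 0.18 with protein-coding genes alone, adjusted p = 0.0001) and IKK2 KO stood below p65 KO by -0.35 ± 0.05 (adjusted p = 4.8e-09). IKK2 KO differed from WT by -0.08, which did not pass. With TNF, IKK2 KO held 53.5 and 52.1 CPM at 45 min and 57.7 and 60.9 at 90 min, a rise of 0.17 ± 0.05 between these times (adjusted p = 0.012). That call was lost with DESeq2 (0.14), without TNF 45 min b (0.099) and without TNF 90 min b (0.19).

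Gclm, the modifier subunit that raises the activity of Gclc (ENSMUSG00000028124, chr3:122245557-122270732, plus strand), was higher in both knock-outs. Untreated libraries held 67.9 and 70.9 CPM in WT, 115 and 113 in p65 KO, and 131 and 126 in IKK2 KO. The 6 libraries of each line did not overlap those of another line. p65 KO exceeded WT by 0.72 ± 0.04 on the log2 scale, 1.65-fold (edgeR adjusted p = 2.3e-21), IKK2 KO exceeded WT by 0.89 ± 0.04, 1.85-fold (adjusted p = 5.5e-24), and IKK2 KO exceeded p65 KO by 0.17 ± 0.04 (adjusted p = 4.9e-05). No TNF change of Gclm passed in any line. Its exons overlap those of the pseudogene Gm6061 on the same strand, which held 942 to 1739 counts per library, up to 85.2% of the Gclm count, so Gclm is uncertain to the extent that reads were split between them. Gm6061 was above WT by 0.17 ± 0.04 in untreated p65 KO (adjusted p = 0.00059) and by 0.68 ± 0.04 in untreated IKK2 KO (adjusted p = 6.4e-18).

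Whether the TNF responses themselves differ from that of WT was tested as a difference of differences. For p65 KO, 3 of 10 responses differed at 45 min (Mt1, Mt2 and Hmox1) beside 7.08% of all genes, and the same 3 at 90 min beside 5.39%. For IKK2 KO, 3 of 10 differed at 45 min (again Mt1, Mt2 and Hmox1) beside 4.86%, and Mt2 alone at 90 min beside 2.35%. All 4 comparisons use the untreated WT libraries, so they are not independent of each other. The Mt2 response was smaller than in WT by -1.02 ± 0.15 at 45 min (edgeR adjusted p = 1.7e-06) and -1.32 ± 0.14 at 90 min (adjusted p = 3.8e-09) in p65 KO. In IKK2 KO the Mt2 difference was -1.15 ± 0.16 at 45 min (adjusted p = 7.6e-07) and -0.84 ± 0.15 at 90 min (adjusted p = 0.00028). Since untreated Mt2 was 5.14-fold higher in p65 KO and 3.94-fold higher in IKK2 KO, these are differences in fold from unequal starting levels.

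The Mt1 response was smaller than in WT in p65 KO at both times, by -0.54 ± 0.08 at 45 min (edgeR adjusted p = 1.6e-06) and -0.48 ± 0.08 at 90 min (adjusted p = 3.4e-05). In IKK2 KO the Mt1 difference was -0.41 ± 0.10 at 45 min (adjusted p = 0.0051), lost with DESeq2 (0.085) and without WT untreated a (0.056). At 90 min it was -0.25 ± 0.10 and did not pass (adjusted p = 0.22), although it did without IKK2 KO TNF 90 min a (0.038). For Hmox1, whose WT level dips at 45 min, the response at that time was higher than in WT by 0.28 ± 0.08 in p65 KO (adjusted p = 0.019) and by 0.39 ± 0.10 in IKK2 KO (adjusted p = 0.012). Both calls were lost with DESeq2, at adjusted p = 0.27 and 0.073. The p65 KO call was also lost without WT untreated b (0.16), WT TNF 45 min a (0.098), p65 KO untreated a (0.050 after rounding), p65 KO untreated b (0.053) or p65 KO TNF 45 min a (0.26). The IKK2 KO call was also lost without WT untreated b (0.073), WT TNF 45 min a (0.051), IKK2 KO untreated a (0.078) or IKK2 KO TNF 45 min a (0.11). At 90 min the Hmox1 response of p65 KO was lower than that of WT by -0.41 ± 0.07 (adjusted p = 0.00011), and that of IKK2 KO by -0.24 ± 0.10, which did not pass (adjusted p = 0.26).

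**Figure D4:**
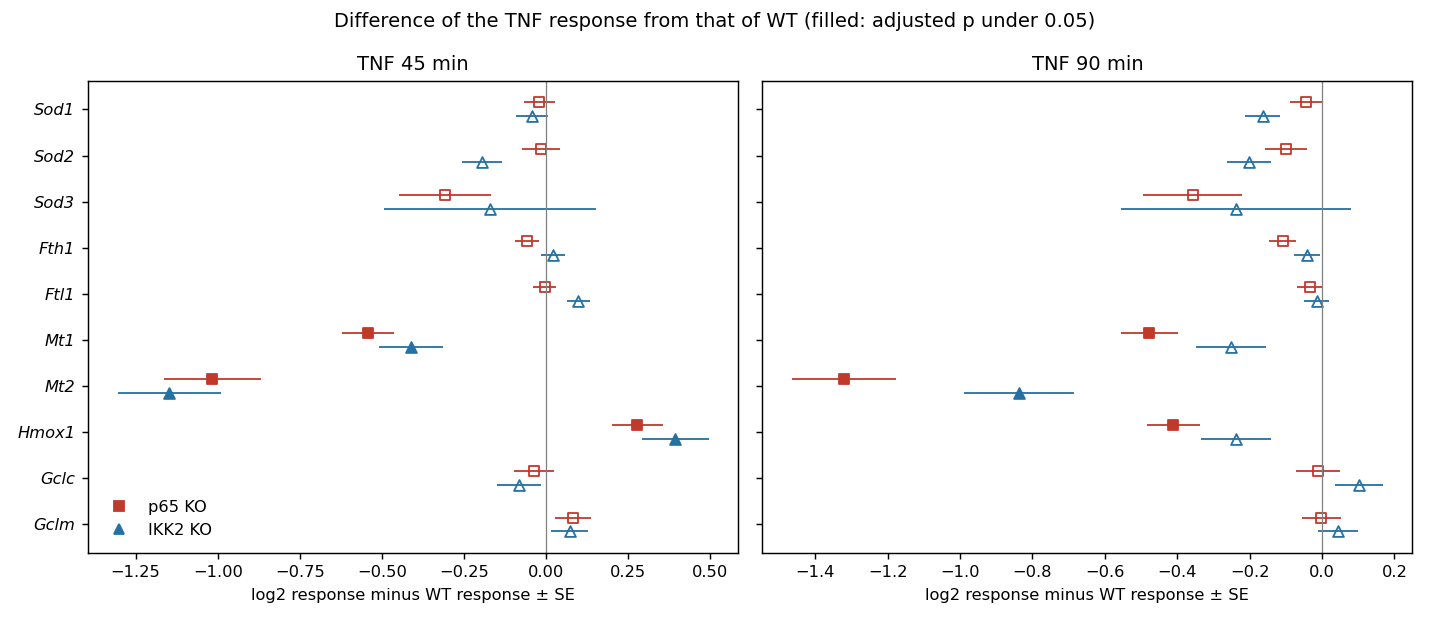
Log2 TNF response of p65 KO (squares) and IKK2 KO (triangles) minus that of WT at 45 min (left) and 90 min (right), with bars of ± SE; filled symbols have an adjusted p under 0.05. Filled symbols occur for Mt1, Mt2 and Hmox1 only; Hmox1 is right of 0 at 45 min (0.28 and 0.39) and left of it at 90 min (-0.41 and -0.24).

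The other genes of these pathways were read from lists that hold none of the 10 members. Of 21 NRF2 pathway genes, all tested, 6 rose and 3 fell in WT at 45 min, beside 12.2% of all genes changed either way, and 9 rose and 0 fell at 90 min, beside 9.32%. At 45 min these included Sqstm1, an autophagy adaptor, at 0.71 ± 0.03 on the log2 scale, Slc7a11, the cystine importer, at 0.52 ± 0.08, and Bach1, the repressor of Hmox1, at 0.43 ± 0.05, while Osgin1 fell by 0.88 ± 0.14. In p65 KO 4 rose and 0 fell at 45 min, beside 1.66%, and 7 rose and 1 fell at 90 min, beside 6.48%. In IKK2 KO 3 rose and 1 fell at 45 min, beside 8.76%, and 8 rose and 0 fell at 90 min, beside 4.48%, Srxn1 (sulfiredoxin, 0.30 ± 0.06) among them. DESeq2 called 4 of the 21 in IKK2 KO at 90 min where edgeR called 8. Over all genes DESeq2 called 338 there where edgeR called 732. Maff, a small MAF partner of NRF2, rose at 90 min in each line, by 0.65 ± 0.06 in WT, 0.60 ± 0.06 in p65 KO and 0.44 ± 0.06 in IKK2 KO. The list's median change in WT at 90 min was 0.10, beside 0 over all genes.

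Bach1 rose at 45 min in WT and also in IKK2 KO (0.42 ± 0.06), and its p65 KO response differed from that of WT by -0.40 ± 0.08 at that time (edgeR adjusted p = 0.00029). Before TNF, 13 of the 21 NRF2 genes were higher and 8 lower in p65 KO than in WT, beside 80.8% of all genes that differed (39.8% higher, 41.1% lower), and 13 were higher and 7 lower in IKK2 KO, beside 74.3% (35.9% higher, 38.4% lower). Nqo1, a quinone reductase, was lower in both, by -1.07 ± 0.06 and -2.19 ± 0.08. Gsta4, which conjugates lipid aldehydes, was higher in both, by 4.41 ± 0.16 and 3.01 ± 0.21, from 0.734 CPM in WT. Nfe2l2, which encodes NRF2, was lower in IKK2 KO by -1.01 ± 0.04.

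Of 10 zinc and copper genes tested of 12 listed (Mt3 and Mt4 were not tested), 1 rose and 1 fell in WT at 45 min, beside 12.2% of all genes, and 2 rose and 0 fell at 90 min, beside 9.32%. In IKK2 KO at 45 min 1 rose and 2 fell, beside 8.76%. DESeq2 called 1 of the 10 in each of these 3 comparisons. Over all genes it called 0.486, 0.471 and 0.49 of edgeR's number in them. The zinc importer Slc39a1 rose in WT at both times, by 0.20 ± 0.04 and 0.26 ± 0.04. The zinc exporter Slc30a1, itself a textbook MTF1 target, fell in WT at 45 min by 0.29 ± 0.07, a call lost with DESeq2 (adjusted p = 0.073), without WT untreated a (0.098) and without WT TNF 45 min b (0.066). In IKK2 KO it fell by 0.86 ± 0.06, where it went from 53.7 to 29.6 CPM and returned to 58.9 at 90 min (0.99 ± 0.06 from 45 min, edgeR adjusted p = 2.3e-18). Its untreated level was lower than WT in p65 KO, by -1.84 ± 0.08, and higher in IKK2 KO, by 1.12 ± 0.06. So untreated Slc30a1 and Mt1 were ordered the opposite way across the lines: Slc30a1 stood at 24.7 CPM in WT, 6.91 in p65 KO and 53.7 in IKK2 KO, and Mt1 at 27.1, 52.3 and 22.7. Mt2 was not ordered this way: untreated it stood at 3.87 CPM in WT, 20.1 in p65 KO and 15.4 in IKK2 KO. In IKK2 KO it was above WT, as Slc30a1 was. The opposite ordering of Slc30a1 and Mt1 was noticed after the values were seen.

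Of 14 iron genes tested of 15 listed (Slc40a1 was not tested), 0 rose and 2 fell in WT at 45 min, beside 12.2% of all genes, and 1 rose and 0 fell at 90 min, beside 9.32%. Tfrc, the transferrin receptor that brings iron in, was among those that fell at 45 min (by 0.13 ± 0.03), while in p65 KO it rose by 0.13 ± 0.03 at 45 min and 0.20 ± 0.03 at 90 min. The WT call was lost without WT untreated b (edgeR adjusted p = 0.20) or WT TNF 45 min b (0.24), and the p65 KO call at 45 min with DESeq2 (0.056) and when any 1 of its 4 libraries was left out (0.053 to 0.20). The 2 responses differed at 45 min by 0.25 ± 0.05 (edgeR adjusted p = 7.5e-05). Untreated, 10 of the 14 were higher and 2 lower in p65 KO than in WT, beside 80.8% of all genes that differed (39.8% higher, 41.1% lower). In IKK2 KO 12 were higher and 2 lower, beside 74.3% (35.9% higher, 38.4% lower). The medians of the list were 0.43 and 0.30, beside -0.02 and -0.03 over all genes. Tfrc was above WT by 1.09 ± 0.03 in p65 KO and 0.96 ± 0.03 in IKK2 KO, and Aco1, the gene of iron regulatory protein 1, by 1.15 ± 0.05 and 0.61 ± 0.05. Ncoa4, the receptor that delivers ferritin for breakdown, was below WT in IKK2 KO by -0.53 ± 0.05 and above WT in p65 KO by 0.33 ± 0.04.

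Among genes that remove peroxide, the product of the dismutases, 16 were tested of 18 listed. In WT at 45 min edgeR called 0 of them, beside 12.2% of all genes. Of the 16, 3 had an unadjusted p under 0.05 and DESeq2 called 0. At 90 min in WT 2 rose, Glrx (0.26 ± 0.04) and Txn1 (0.12 ± 0.03), beside 9.32% of all genes. The Txn1 call was lost with DESeq2 (adjusted p = 0.072), without WT untreated b (0.12) and without WT TNF 90 min a (0.12). Untreated, 10 of the 16 were higher and 4 lower in p65 KO than in WT, beside 80.8% of all genes that differed (39.8% higher, 41.1% lower). In IKK2 KO 6 were higher and 6 lower, beside 74.3% (35.9% higher, 38.4% lower). Prdx2, a cytosolic peroxiredoxin, stood at 847 CPM in p65 KO, 135 in WT and 135 in IKK2 KO, a difference of 2.65 ± 0.03 between p65 KO and WT. Of 10 listed sources of superoxide and peroxide 5 could be tested. Both edgeR and DESeq2 called 0 of them in every line at either TNF time against untreated. The edgeR shares over all genes at 45 and 90 min were 12.2% and 9.32% in WT. They were 1.66% and 6.48% in p65 KO, and 8.76% and 4.48% in IKK2 KO. With 5 genes, 0 calls cannot be told apart from these shares. At an unadjusted p under 0.05 there were, of these 5, 1 and 2 in WT at 45 and 90 min, 0 and 0 in p65 KO, and 1 and 0 in IKK2 KO. The shares of all genes in this paragraph are for adjusted p under 0.05. They do not compare with the counts at an unadjusted p, for which no share is given. Nox4, an oxidase that makes hydrogen peroxide, was above WT in untreated p65 KO by 0.43 ± 0.07 and below it in untreated IKK2 KO by -1.92 ± 0.12.

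Likeness of pattern was measured as Pearson's r over the 9 group means of log2 CPM, among 10609 genes, for the 6 members whose group means spanned at least 2-fold. These points share 3 lines and their libraries, so r mostly follows the order of the lines and is given as a description. The gene most like Sod1 was Nup88 (r = 0.999), and that most like Sod3 was Cryab (0.998). Hmox1 was most like Clic4 (0.998) and Gprc5a (0.994), Mt1 most like Cacnb3 (0.990), and Gclm most like D17Wsu92e (1 after rounding) and Tcof1 (0.999). For Mt2 the highest r was 0.968 (Tsen15), below the highest of the other 5 members. Neither metallothionein was among the 5 genes most like the other.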

How the data were processed

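The members and the pathway lists were chosen with earlier results of these data known. The table holds expected counts per gene that the authors deposited; 31.8% of the values above 0 are fractional. HISAT2, featureCounts (Subread 1.6.2), Trimmomatic, FastQC 0.11.8, edgeR 3.26.4 and the GRCm38 build are named in the submitters' processing notes, and per the labels' protocols total RNA went into a directional kit with paired reads of 76 bases. Not given in the sources used here: the annotation release, the strand setting and how multi-mapping reads were counted. Fractional counts can come from reads shared between copies: Ftl1 had them in 18 of 18 libraries, Fth1 and Sod2 in 16, Sod1 in 15, Gclm in 11, Mt1 in 4, Mt2 in 3, Gclc in 2, Sod3 and Hmox1 in 0.

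Here the values were rounded, filtered with filterByExpr (16322 genes kept), scaled by TMM and fitted with edgeR 4.0.16, 1 coefficient per group over 18 libraries, using the robust quasi-likelihood F-test, which is two-sided. Each of the 16 contrasts was adjusted by Benjamini-Hochberg. The common coefficient of variation beyond counting error, 1 value for all genes, was 1.93%. Single genes can vary more between libraries. Replicate pairs differed by more than counting error (chi-square per degree of freedom 1.13 to 4.27). All gene IDs matched GENCODE M21, which gave positions and exon lengths. Promoters came from RefSeq (GRCm38.p6), whose starts can differ from GENCODE's. On simulated data for WT at 45 min (15285 genes), 66% of genes planted at 1.25-fold, 88% at 1.5-fold and 100% at 2-fold were recovered, with 5 false of 182 calls.

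List genes were picked within a comparison by the largest changes past the threshold with at least 2 CPM in the higher group, up to 3 in each direction. For some of them values are also given in other comparisons, where they need not be among the largest, such as Ncoa4 in untreated p65 KO. Genes like a member are the 5 with the highest r. Alternatives were DESeq2 1.42.0, RLE scaling, no filter, protein-coding genes alone, only the groups compared, each library left out, and, added after seeing the data, Ftl1 summed with its copies.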

Additional observations from a re-analysis of the deposited data

Results flagged for a closer look

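For 10 responses to TNF, a test of the difference between a knock-out and WT passed the threshold. They concern Mt1, Mt2 and Hmox1. In each comparison 10 members were tested. Of all genes, edgeR called 7.08% and 5.39% for p65 KO at 45 and 90 min, and 4.86% and 2.35% for IKK2 KO. With DESeq2 the Hmox1 calls at 45 min were lost in both knock-outs, as was the Mt1 call in IKK2 KO. Against WT, the log2 response of Mt2 differed by -1.02 at 45 min and -1.32 at 90 min in p65 KO, and by -1.15 and -0.84 in IKK2 KO. That of Mt1 differed by -0.54 and -0.48 in p65 KO and by -0.41 at 45 min in IKK2 KO. That of Hmox1 differed by 0.28 at 45 min and -0.41 at 90 min in p65 KO, and by 0.39 at 45 min in IKK2 KO. Untreated Mt2 was 3.87 CPM in WT, 20.1 in p65 KO and 15.4 in IKK2 KO, and the part of these unequal starting levels in the differences was not tested. Groups of 2 libraries are too small for a test of single libraries that stand apart.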

How the results depend on the processing

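No member's call turned direction under any alternative. Counts of members called moved by over 1.5 times in these cases. WT between 45 and 90 min had 1 in place of 2 with DESeq2 and without the filter, and 1 to 1 with each library left out. The IKK2 KO response difference at 90 min had 2 in place of 1 with protein-coding genes alone and with only the groups compared, and 1 to 2 with a library left out. With only the groups compared, p65 KO had 1 in place of 0 at 45 min and 1 in place of 0 between 45 and 90 min. With DESeq2, p65 KO at 90 min had 1 in place of 2, IKK2 KO between 45 and 90 min 3 in place of 5, and the IKK2 KO response difference at 45 min 1 in place of 3. With a library left out, WT at 45 min had 3 to 5 called (5 without WT TNF 45 min a), p65 KO at 90 min 0 to 1, and IKK2 KO between 45 and 90 min 2 to 5. Leaving out 1 library leaves a group with a lone library, assumed to vary like the others. Over all genes, DESeq2 called 966 in WT at 45 min where edgeR called 1988, 717 where it called 1521 at 90 min, and 0.326 to 0.524 of edgeR's number in every comparison with a TNF library; p65 KO at 45 min had 533 in place of 271 with only the groups compared, and 97 without p65 KO untreated a. RLE scaling changed 1 member call and summing Ftl1 with its copies changed 0. No paired analysis was possible because the columns name the group and a library code that no label holds, so replicate numbers could not be matched. Depth limits Sod3 in IKK2 KO most, with 12 to 33 counts per library.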

Other observations

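Before TNF, 72.4% of all tested genes differed between the knock-out lines, and the genes listed around the members are given beside that share. Slc30a1, the zinc exporter, stood at 53.7 CPM in IKK2 KO and 6.91 in p65 KO, a log2 difference of 2.95 ± 0.07 (edgeR adjusted p = 1.1e-32), and 4 of 10 zinc and copper genes were higher and 4 lower in IKK2 KO. Of the 16 peroxide-removal genes 6 were higher and 6 lower by edgeR, 12 calls where DESeq2 made 8. Over all genes DESeq2 called 0.873 of edgeR's number between these lines. Prdx2 (-2.65 ± 0.03), Gpx1 (-0.86 ± 0.05) and Prdx1 (-0.74 ± 0.03) were lower in IKK2 KO, and mitochondrial thioredoxin reductase Txnrd2 was higher (1.36 ± 0.11). Among the 21 NRF2 genes 6 were higher and 12 lower. The small MAF genes Maff, Mafk and Mafg were higher in IKK2 KO by 0.88 ± 0.06, 0.82 ± 0.06 and 0.76 ± 0.04, and glutathione reductase Gsr was lower by -1.04 ± 0.03.

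Genes of the NRF2 list also differed from WT in their TNF response. At 45 min the response of Sqstm1 was smaller than in WT by -0.55 ± 0.04 in p65 KO (edgeR adjusted p = 4.1e-13) and, in IKK2 KO, by -0.30 ± 0.04 (adjusted p = 1.1e-06), and that of Slc7a11 in p65 KO by -0.46 ± 0.10. Osgin1, which fell in WT at 45 min, had a response above that of WT by 1.02 ± 0.21 (adjusted p = 0.00089) in IKK2 KO, a call lost with DESeq2 (0.075). At that time edgeR called 7 of the 21 responses different in p65 KO where DESeq2 called 4, beside 7.08% of all genes by edgeR, and 5 in IKK2 KO where DESeq2 called 1, beside 4.86%. Over all genes DESeq2 called 0.503 of edgeR's number for p65 KO and 0.51 for IKK2 KO at 45 min. All these response differences use the same WT libraries.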
